A study of Mus musculus with 4 samples.

Results

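Of the 54752 genes counted in these libraries, 8 that act between the T-cell receptor and MEK1/2 are described here. They were chosen by name, for their known place in the pathway, and comprise the RAS GTPases Nras and Hras, the RAF kinases Braf and Araf, the RAF-MEK scaffold Ksr1, the RAS exchange factors Sos1 and Rasgrp1, and the RAS GTPase-activating protein Nf1. The polyadenylated RNA of naïve CD4+ T cells from mouse spleen, cultured under Tfh-polarizing conditions, was sequenced on day 3 in 2 WT and 2 Mek1/2-tKO libraries. Mek1/2-tKO mice carried Cd4-Cre together with homozygous floxed alleles of Map2k1 and Map2k2, the genes of MEK1 and MEK2, and the study describes its WT mice as littermate controls without giving their floxed alleles or Cre status. Both genotypes received the same activation with anti-CD3 and anti-CD28, IL-6 and blocking antibodies against other helper-cell cytokines, with a sort of viable cells ahead of RNA extraction. The Cd4 promoter drives Cre in the T lineage from the thymus onwards, in CD4+ and CD8+ T cells alike, and leaves B cells and NK cells undeleted. Animal ages, the number of mice behind a library and whether 2 libraries of a genotype came from separate animals are not given in the sources used here, so the p-values measure the spread between these libraries, which may be technical.

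RAS proteins are molecular switches that are active when bound to GTP. When the T-cell receptor is engaged, phospholipase C-γ1 makes diacylglycerol, which recruits RASGRP1, and the adaptors LAT and GRB2 bring SOS to the membrane; both exchange factors load RAS with GTP. GTP-bound RAS recruits RAF kinases, RAF phosphorylates MEK1/2 on scaffolds such as KSR1, MEK1/2 phosphorylate ERK1/2, and GTPase-activating proteins such as NF1 return RAS to its inactive state. Deleting MEK1/2 cuts this chain below all 8 proteins, and the comparison addressed here is whether the transcripts of the upstream steps differed between the genotypes.

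All 8 genes were expressed and tested. Ksr1, Sos1, Rasgrp1 and Nf1 were lower in the Mek1/2-tKO libraries past both thresholds used throughout (adjusted p under 0.05 by Benjamini-Hochberg over 14330 genes, from edgeR's quasi-likelihood test, and at least a 1.5-fold difference), and 0 of the 8 were higher. Nras, Hras, Araf and Braf, the GTPases and the kinases themselves, changed by less than 1.5-fold. Thus 4 of 8 were lower, whereas 16.4% of all genes tested were lower and 19.3% were higher by the same rule. The median log2 fold change was -0.60 over the 8 genes and 0.02 over all genes tested. In each of the 8 genes the values of the genotypes did not overlap, which was also true of 78.3% of all genes tested. The genes were named with earlier results of these data known, and no test was made of the list as a whole.

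**Figure D1:**
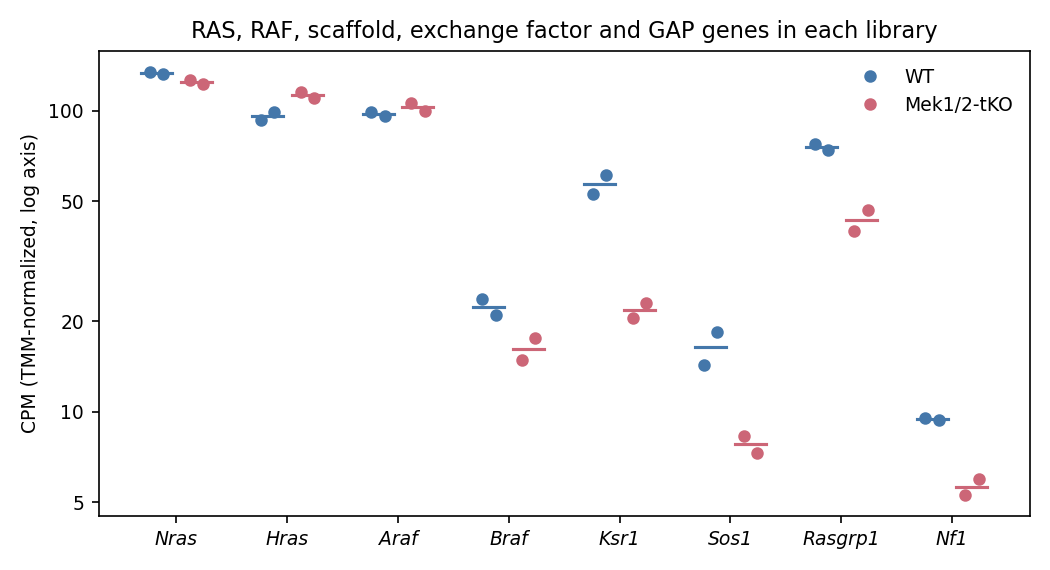
Counts per 1000000 (CPM, TMM-normalized, log axis) of the 8 genes in each library, with 1 point per library and a bar at the mean of each genotype (n = 2). Nras, Hras and Araf lie between 93.0 and 135 CPM in all 4 libraries, whereas the Mek1/2-tKO points of Ksr1, Sos1, Rasgrp1 and Nf1 lie at 38.1% to 59.5% of the WT means.

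The targeted genes were read first. Map2k1 had 182 and 187 CPM in WT and 98.0 and 105 CPM in Mek1/2-tKO libraries, a log2 fold change of -0.86 (SE 0.08; edgeR adjusted p = 1.29e-06). Map2k2 had 155 and 165 CPM in WT and 172 and 182 CPM in Mek1/2-tKO libraries, and its log2 fold change of 0.15 did not pass (SE 0.08; edgeR adjusted p = 0.126). Map2k1 was lower but still present, and Map2k2 was not lower, although the label is of a deletion of both genes. These counts cover all exons of a gene, and which exons are floxed is not given in the sources used here. No counts by exon were made, so the values are no check of the deletion. The Mek1/2-tKO libraries are named by their label throughout. The study itself genotyped the mice by PCR and examined phosphorylated MEK1/2 and ERK1/2 by flow cytometry in naïve CD4+ T cells of the spleen. Library totals lay between 16330802 and 18931090 counts.

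The labelled cell type was also compared with marker genes. Cd4 itself had 297 and 289 CPM in WT and 18.8 and 25.1 CPM in Mek1/2-tKO libraries. Of 7 T-cell markers, 5 were lower, and the summed level of all 7 was 1356 to 1369 CPM against 652 to 709 CPM. The other 2 T-cell markers had positive log2 fold changes, and 1 of them passed the adjusted p threshold but was under 1.5-fold. All 10 B-lineage markers were higher, and their summed level was 1261 to 1283 CPM in WT and 6694 to 6738 CPM in Mek1/2-tKO libraries. All 8 NK-cell markers were higher too (127 to 131 against 795 to 872 CPM), as were both CD8 markers (59.3 to 67.4 against 214 to 238 CPM). Of 4 gamma-delta T-cell markers, 2 could be tested and both were higher (sum of the list 2.26 to 3.32 against 55.9 to 60.5 CPM); 1 of the 4 was at 0 in WT replicate 1. Of 8 myeloid markers, 5 could be tested and all 5 were higher (6.52 to 7.52 against 44.4 to 50.1 CPM), with 2 of the 8 at 0 in each WT library and 1 in a Mek1/2-tKO library. In bulk RNA, fewer cells of a type and less RNA per cell cannot be told apart. The part of these cell types in the differences described below was not tested.

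The RAS GTPases came first in order of level. Nras (ENSMUSG00000027852.14, GRCm38 chromosome 3, 103058285 to 103067914) and Hras (ENSMUSG00000025499.18, chromosome 7, 141189105 to 141194005) encode nearly identical switch domains and differ most in the carboxy-terminal tail, where lipid anchors are attached. Their coding sequences were 75.9% identical, with a longest identical run of 23 bases. The last 75 coding bases of each (positions 496 to 570 of the GENCODE M21 transcripts, GRCm38) encode this tail. They are shown because they differ more than the first 75 do: 39 of the 75 bases, in capitals, differ between the genes, against 16 of the first 75. The genes differ elsewhere in the coding sequence as well.
Nras: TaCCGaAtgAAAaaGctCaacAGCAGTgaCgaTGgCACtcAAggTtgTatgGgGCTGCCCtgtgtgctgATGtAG
Hras: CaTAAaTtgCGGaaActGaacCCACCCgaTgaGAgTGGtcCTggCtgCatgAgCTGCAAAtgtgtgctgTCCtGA
No stretch of 100 bases in either gene's transcripts occurred in a transcript of another gene, so that their reads could be assigned separately at this length.

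Nras had 135 and 133 CPM in WT and 127 and 123 CPM in Mek1/2-tKO libraries. The Mek1/2-tKO values were slightly lower without overlap, but the log2 fold change of -0.10 did not pass (SE 0.08; 95% interval -0.27 to 0.07; edgeR adjusted p = 0.315). Hras, by contrast, had its higher values in the Mek1/2-tKO libraries, with 93.0 and 99.2 CPM in WT and 116 and 110 CPM in Mek1/2-tKO. Its log2 fold change of 0.23 (SE 0.09; 95% interval 0.05 to 0.42) passed the adjusted p threshold but was under 1.5-fold (edgeR adjusted p = 0.0348; 0.0241 to 0.181 over the alternatives that kept all libraries and 0.00677 to 0.349 when 1 library was left out). By adjusted p alone, 27.8% of all genes tested were higher.

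Per kilobase of exon, which allows levels to be compared between genes, Nras and Hras did not differ beyond the spread of the WT libraries. They were at 25.1 ± 0.291 and 25.7 ± 1.18 CPM per kilobase (SD, n = 2), with overlapping libraries. In the Mek1/2-tKO libraries Nras was at 23.4 ± 0.594 and Hras at 30.3 ± 1.04 CPM per kilobase, without overlap. The summed level of the pair was 50.8 ± 0.890 CPM per kilobase in WT and 53.7 ± 1.63 in Mek1/2-tKO, and Nras made up 49.4% ± 1.44 of it in WT and 43.6% ± 0.219 in Mek1/2-tKO.

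Araf and Braf encode RAF kinases, which phosphorylate MEK1/2 directly. Araf (ENSMUSG00000001127.12, chromosome X, 20797814 to 20860519) had 99.0 and 96.0 CPM in WT and 106 and 100 CPM in Mek1/2-tKO libraries, a log2 fold change of 0.08 that did not pass (SE 0.09; 95% interval -0.11 to 0.27; edgeR adjusted p = 0.457). The sign of this value turned when library size alone was used for scaling. Braf (ENSMUSG00000002413.15, chromosome 6, 39603237 to 39725463), which encodes the RAF with the highest basal kinase activity, had 23.8 and 20.9 CPM in WT and 14.8 and 17.6 CPM in Mek1/2-tKO libraries. Both Mek1/2-tKO values lay under both WT values, and the log2 fold change of -0.46 passed the adjusted p threshold but not 1.5-fold (SE 0.15; 95% interval -0.79 to -0.13; edgeR adjusted p = 0.0214). Without Mek1/2-tKO replicate 2 it was -0.60 and passed both thresholds, whereas without WT replicate 1 (-0.37) or without Mek1/2-tKO replicate 1 (-0.34) it passed neither. Its edgeR adjusted p lay between 0.00396 and 0.1504 when 1 library was left out, so the status of Braf depends on the library removed. By adjusted p alone, 27.2% of all genes tested were lower.

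Of the 2 kinases, Araf had the higher transcript level per kilobase in both genotypes. Araf was at 14.9 ± 0.334 CPM per kilobase in WT and 15.8 ± 0.655 in Mek1/2-tKO, and Braf at 1.61 ± 0.146 and 1.17 ± 0.145. The exon length used is the union of all annotated transcripts, 13862 bases for Braf and 6541 for Araf, which lowers the level of a gene with long, little-used exons. Araf made up 90.3% ± 0.600 of the summed level of the pair in WT and 93.1% ± 1.06 in Mek1/2-tKO libraries, and the sum itself was 16.5 ± 0.480 and 16.9 ± 0.511 CPM per kilobase.

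**Figure D2:**
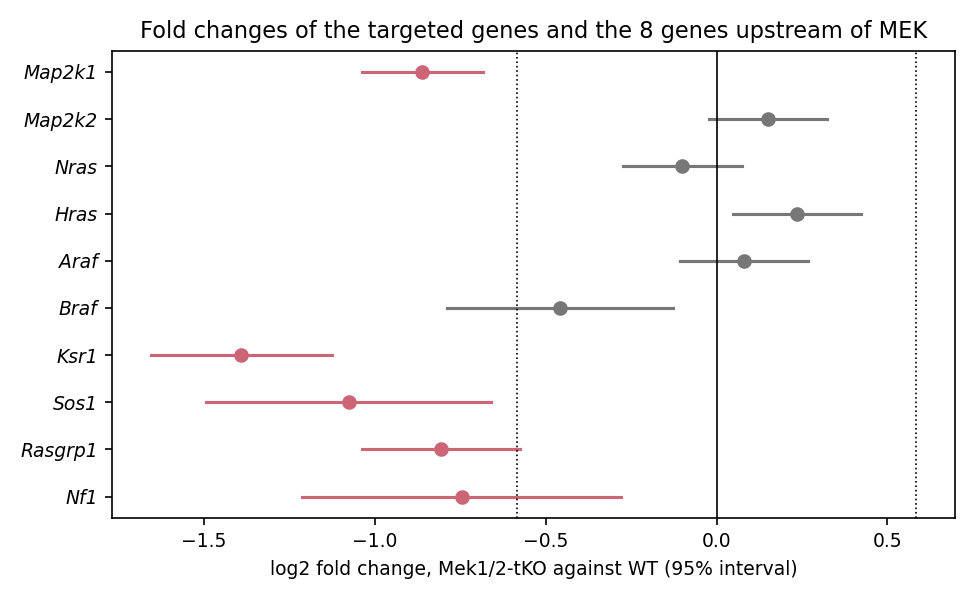
Log2 fold change of Mek1/2-tKO against WT (point) with its 95% interval (line) for the targeted genes and the 8 upstream genes, from edgeR's quasi-likelihood fit. Dotted lines mark 1.5-fold and red marks genes past both thresholds: Map2k1, Ksr1, Sos1, Rasgrp1 and Nf1, with log2 fold changes from -1.39 to -0.75.

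Ksr1 had the largest change of the 8. It encodes kinase suppressor of RAS 1, a RAF-related scaffold that holds RAF, MEK and ERK together (ENSMUSG00000018334.18, chromosome 11, 79013440 to 79146407). Its level was 53.0 and 61.3 CPM in WT and 20.5 and 23.0 CPM in Mek1/2-tKO libraries. The Mek1/2-tKO mean was 38.1% of the WT mean, and both Mek1/2-tKO values were far under both WT values. The log2 fold change was -1.39 (SE 0.12; 95% interval -1.66 to -1.13; edgeR adjusted p = 6.36e-07), and leaving out any 1 library gave -1.495 to -1.29. The exons of Ksr1 share 2.62% of their bases with Gm11201 on the opposite strand, for which at most 4 reads were counted in a library. Ksr2, the other KSR gene, had a count of 0 in 3 libraries and of 2 in Mek1/2-tKO replicate 1.

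Sos1 and Rasgrp1 encode the exchange factors that load RAS with GTP, SOS1 through GRB2 and RASGRP1 through diacylglycerol, and both transcripts fell. Sos1 (ENSMUSG00000024241.7, chromosome 17, 80393751 to 80480453) had 14.3 and 18.5 CPM in WT and 8.27 and 7.30 CPM in Mek1/2-tKO libraries. These were 128 to 356 reads in a library, the WT libraries differed more from each other than the Mek1/2-tKO libraries did, and the genotypes did not overlap. The log2 fold change was -1.08 (SE 0.19; 95% interval -1.49 to -0.66; edgeR adjusted p = 3.54e-04). Its homologue Sos2, which shares 70.6% of the aligned coding bases, fell by a like amount, from 23.7 and 22.3 CPM to 8.59 and 12.5 CPM (log2 fold change -1.12, SE 0.18; edgeR adjusted p = 1.64e-04). Summed over both SOS genes, the level was 4.25 ± 0.160 CPM per kilobase in WT and 1.97 ± 0.261 in Mek1/2-tKO, 46.5% of the WT mean.

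Rasgrp1 (ENSMUSG00000027347.18, chromosome 2, 117279993 to 117343001), the main RASGRP of T cells, had 77.6 and 74.0 CPM in WT and 39.9 and 46.8 CPM in Mek1/2-tKO libraries. The Mek1/2-tKO mean was 57.1% of the WT mean, and the log2 fold change was -0.81 (SE 0.11; 95% interval -1.04 to -0.57; edgeR adjusted p = 2.81e-05). Rasgrp2 and Rasgrp3 went the other way. Rasgrp2, known for activating RAP1 in platelets and leukocytes, had 9.65 and 10.7 CPM in WT and 57.0 and 70.8 CPM in Mek1/2-tKO libraries, a log2 fold change of 2.65 (SE 0.14; edgeR adjusted p = 4.29e-09). Rasgrp3, known for its role in B cells, rose from 283 and 270 reads to 546 and 527 reads (log2 fold change 1.15, SE 0.15; edgeR adjusted p = 2.35e-05). Rasgrp4, known from mast cells, had at most 2.28 CPM in a library and did not pass (log2 fold change -1.66, SE 0.74; edgeR adjusted p = 0.0729), and 18.2% of its exon sequence overlaps a gene on the opposite strand. It passed in 5 of the 10 alternative fits that gave it a value, and its log2 fold change ranged from -2.80 without Mek1/2-tKO replicate 1 to -0.66 without WT replicate 2, so it is uncertain.

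As Rasgrp1 fell and Rasgrp2 and Rasgrp3 rose, the makeup of the family differed between the genotypes. Per kilobase of exon, its sum differed far less, a result that depends on the exon lengths used. The summed level of the 3 genes was 16.8 ± 0.462 CPM per kilobase in WT and 18.3 ± 0.784 in Mek1/2-tKO libraries, 109% of the WT mean. Rasgrp1 made up 80.6% ± 0.512 of this sum in WT and 42.2% ± 2.95 in Mek1/2-tKO, Rasgrp2 4.89% ± 0.487 and 28.1% ± 3.08, and Rasgrp3 14.5% ± 0.0257 and 29.7% ± 6.03 (SD, n = 2 each). These sums and shares rest on the union exon length, 12384 bases for Rasgrp2 against 5600 for Rasgrp1 and 5840 for Rasgrp3. Without division by length, the Mek1/2-tKO means were 63.9 CPM for Rasgrp2, 43.3 for Rasgrp1 and 31.7 for Rasgrp3, so Rasgrp2 ranked first. In WT they were 10.2, 75.8 and 14.3 CPM in the same order. In CPM the rise of Rasgrp2 alone was larger than the fall of Rasgrp1, so the summed CPM of the 3 genes was higher in Mek1/2-tKO than in WT. The fall of Rasgrp1 stood beside the lower summed T-cell marker level given above. The rise of Rasgrp2 and Rasgrp3 stood beside the higher B-lineage and NK-cell marker levels. The part of these cell types in either change was not tested.

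**Figure D3:**
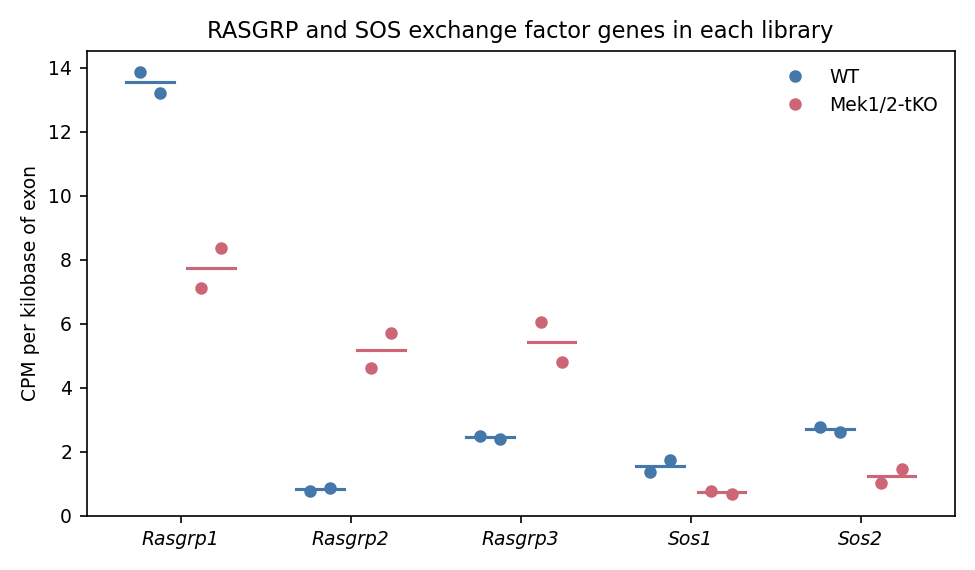
CPM per kilobase of exon of the RASGRP and SOS exchange factor genes in each library, with a bar at the mean of each genotype (n = 2). Rasgrp1, Sos1 and Sos2 are lower in both Mek1/2-tKO libraries and Rasgrp2 and Rasgrp3 are higher. On this scale Rasgrp1 makes up 80.6% of the summed RASGRP level in WT and 42.2% in Mek1/2-tKO. These shares depend on the union exon length used for each gene.

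Nf1 encodes neurofibromin, a GTPase-activating protein that switches RAS off, so its known effect is opposite to that of the exchange factors (ENSMUSG00000020716.16, chromosome 11, 79339693 to 79581612). It had 9.55 and 9.39 CPM in WT and 5.30 and 5.96 CPM in Mek1/2-tKO libraries, without overlap. The log2 fold change was -0.75 (SE 0.22; 95% interval -1.21 to -0.28; edgeR adjusted p = 0.00994). Nf1 had the fewest reads of the 8 genes, 82 to 186 in a library, and the interval of its change was the widest.

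In WT the order of the levels per kilobase was Hras, Nras, Araf, Rasgrp1, Ksr1, Braf, Sos1 and Nf1. Within it, Hras and Nras overlapped, as did Braf and Sos1 (1.61 ± 0.146 and 1.55 ± 0.277 CPM per kilobase), and the other neighbours did not. Rasgrp1 was at 13.5 ± 0.459 CPM per kilobase in WT and 7.73 ± 0.872 in Mek1/2-tKO, Ksr1 at 8.04 ± 0.820 and 3.06 ± 0.252, Sos1 at 0.735 ± 0.0649 in Mek1/2-tKO, and Nf1 at 0.597 ± 0.00703 and 0.355 ± 0.0298. The order was the same in the Mek1/2-tKO libraries, where no neighbours overlapped.

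Promoter sequences of the genes that fell and of Nras, which did not pass, are shown so that they can be set side by side. They are the stretches within the 250 bases upstream of the RefSeq start (GRCm38.p6) that lie outside every annotated exon, written 5′ to 3′ on the gene's strand. Capitals mark matches, on either strand, to 6 motifs, and overlapping matches were merged. The GC box was read as GGGCGG, which binds SP-family factors. For ETS-family factors, downstream of ERK in many cells, the letters CCGGAAG were searched. The E-box was taken as CACGTG and the CCAAT box by the letters of its name. A cyclic AMP response element (TGACGTCA) and an AP-1 motif, with TGANTCA as its letters, were searched as well.
Ksr1, chr11:79146474-79146723, minus strand: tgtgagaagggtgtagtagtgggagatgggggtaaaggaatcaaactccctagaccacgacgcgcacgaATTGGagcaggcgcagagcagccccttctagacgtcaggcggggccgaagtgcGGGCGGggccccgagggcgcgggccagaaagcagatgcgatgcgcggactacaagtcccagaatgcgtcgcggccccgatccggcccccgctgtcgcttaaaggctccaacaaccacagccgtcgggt
Sos1, chr17:80480454-80480703, minus strand: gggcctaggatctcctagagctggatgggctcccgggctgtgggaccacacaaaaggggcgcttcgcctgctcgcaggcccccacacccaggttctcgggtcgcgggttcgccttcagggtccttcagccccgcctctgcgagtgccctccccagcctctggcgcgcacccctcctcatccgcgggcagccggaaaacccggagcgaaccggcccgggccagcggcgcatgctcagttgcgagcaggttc
Rasgrp1, chr2:117343002-117343127, minus strand: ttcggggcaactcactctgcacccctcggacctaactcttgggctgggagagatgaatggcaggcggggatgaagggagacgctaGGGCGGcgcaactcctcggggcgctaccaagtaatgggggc
Nf1, chr11:79339642-79339692, plus strand: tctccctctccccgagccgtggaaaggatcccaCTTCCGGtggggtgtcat
Nras, chr3:103058187-103058284, plus strand: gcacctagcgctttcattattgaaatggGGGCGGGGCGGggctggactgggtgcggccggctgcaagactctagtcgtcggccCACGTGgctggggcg
All 8 genes were found in the RefSeq promoter table, with 9 promoters, since Ksr1 has an additional internal start. A GC box was present in 6 of the 9 promoters, those of Nras, Hras, Braf, Rasgrp1 and both of Ksr1, and in 32.7% of the 32851 RefSeq promoters of the same length. Except for Nras (48.4%), these 250-base windows held 58.0% to 65.6% G and C, against a median of 52.4% over all promoters. The part of base composition in the GC-box count was not tested. A CCAAT box was present in 3 of 9, in Hras, Araf and Ksr1, against 33.8% of all promoters. The ETS motif matched in Nf1 alone (6.91% of all promoters), the E-box in Nras alone (6.02%), and the AP-1 motif in the internal promoter of Ksr1 alone (6.75%). The cyclic AMP response element matched in Braf alone, 2 times, at positions -99 and -81, and in 1.55% of all promoters. The window of Sos1 held none of these letters. No motif was shared by the 4 genes that fell, and a match in letters is not evidence of binding.

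The other genes of the pathway were described from a list of 56, of which 50 had enough reads to be tested. In Mek1/2-tKO libraries 7 of the 50 were higher and 11 lower, 14% and 22%, against 19.3% and 16.4% of all genes tested. Scaling by library size alone gave 5 higher and 15 lower. Their median log2 fold change was -0.23. The list was drawn up with earlier results of these data known.

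Near the receptor, 2 of 7 adaptor genes fell and 1 rose. For counts by role, here and below, the shares of all genes tested were 16.4% lower and 19.3% higher. With so few genes in a role, no result about a role is drawn from its count. Plcg1, which encodes the phospholipase that makes diacylglycerol for RASGRP1, fell from 85.6 and 83.5 CPM to 23.8 and 23.9 CPM (log2 fold change -1.83, SE 0.10; edgeR adjusted p = 8.11e-09). Ptpn11, the gene of the phosphatase SHP2, fell from 165 and 174 CPM to 92.6 and 94.7 CPM (log2 fold change -0.85, SE 0.08). Lat, whose protein gathers PLC-γ1 and GRB2-SOS, passed the adjusted p threshold but not 1.5-fold, with a log2 fold change of -0.55 (SE 0.08). Grb2 had a log2 fold change of 0.20 (SE 0.08), also under 1.5-fold. Gab2, the adaptor gene that rose, rested on 8 to 32 reads in a library and lost its call in 7 of the 10 alternative fits that gave it a value, with a log2 fold change of 0.95 without Mek1/2-tKO replicate 1.

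Among 5 further RAS-family GTPases tested, Rras and Rras2 rose, with log2 fold changes of 1.11 (SE 0.20) and 0.77 (SE 0.10), and none fell. Rras2 had 91.7 and 103 CPM in WT and 179 and 155 CPM in Mek1/2-tKO libraries; its protein, TC21, is close to the classical RAS proteins. Rap1a and Rap1b had log2 fold changes of 0.13 and -0.07 and did not pass. Of 5 further exchange factors tested, Rasgrp2 and Rasgrp3 rose and Sos2 and Rapgef1 fell, the last by a log2 fold change of -0.60 at the edge of the threshold (SE 0.09), where 3 of 11 alternative fits put it under 1.5-fold (-0.58 with at least 10 counts in every library, -0.57 without WT replicate 2 and -0.51 without Mek1/2-tKO replicate 1).

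The GTPase-activating proteins did not move one way. Of 8 tested beside Nf1, Rasa2 (-0.87, SE 0.12) and Dab2ip (-1.94, SE 0.33) fell on the log2 scale, and Rasa3 rose by 2.01 (SE 0.12), from 22.4 and 26.7 CPM to 91.1 and 106 CPM. Rasa1, which encodes p120 RasGAP, had a log2 fold change of -0.25 (SE 0.12) and did not pass. Spred1 and Spred2 encode the membrane partners that bring NF1 to RAS, and both fell together with Nf1. Their log2 fold changes were -0.71 (SE 0.15) for Spred1 and -1.62 (SE 0.16) for Spred2, whose level went from 26.4 and 25.4 CPM to 8.14 and 8.68 CPM.

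Around RAF, none of 5 further RAF and scaffold genes tested passed both thresholds, and 2 of them, Shoc2 (-0.48, SE 0.11) and Iqgap1 (-0.24, SE 0.08), were lower by adjusted p alone. Of 8 RAF-binding regulators, Pak1 (-2.003, SE 0.47) and Ywhag (-0.67, SE 0.08) fell and Ywhaq (0.63, SE 0.11) rose, the last 2 being genes of 14-3-3 proteins, which hold RAF in its inactive or active form. Both 14-3-3 calls lay near the fold threshold: Ywhaq fell under it with library size alone (0.54), without WT replicate 2 (0.53) and without Mek1/2-tKO replicate 1 (0.48), and Ywhag without Mek1/2-tKO replicate 1 (-0.57). By adjusted p alone, 5 of the 8 regulators were lower and 1 was higher, against 27.2% and 27.8% of all genes tested. The 14-3-3 genes Ywhae (-0.49, SE 0.07) and Ywhab (-0.37, SE 0.08) were among the lower, both under 1.5-fold. Of 9 genes of RAS lipid processing and diacylglycerol kinases, Zdhhc9, a subunit of the enzyme that palmitoylates RAS, fell from 15.1 and 14.7 CPM to 6.33 and 8.52 CPM (log2 fold change -0.995, SE 0.20). Dgkz, whose product removes diacylglycerol, passed the adjusted p threshold with a log2 fold change of -0.57 (SE 0.07), just under 1.5-fold.

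**Figure D4:**
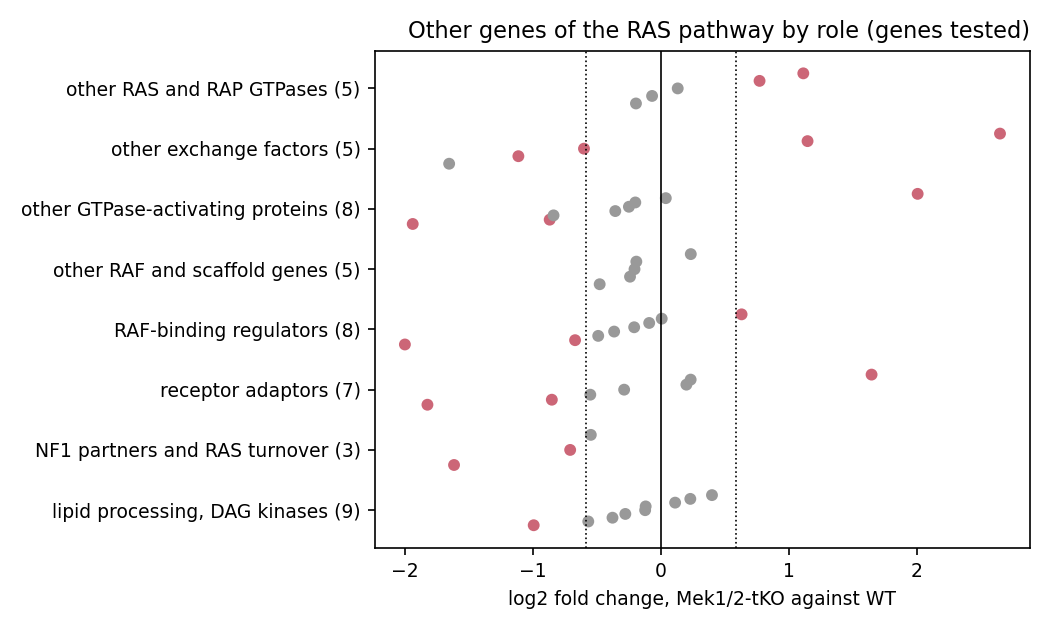
Log2 fold change of Mek1/2-tKO against WT for the 50 further RAS pathway genes tested, grouped by role with the number tested in parentheses; each point is a gene, dotted lines mark 1.5-fold, and red marks genes past both thresholds. The 7 genes that rose and the 11 that fell are spread over the roles, from -2.003 (Pak1) to 2.65 (Rasgrp2).

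For each of the 4 genes that fell, the gene with the most similar course over the 4 libraries was sought among 9605 or 9606 genes whose log2 CPM averaged 3 or more, by the root mean square difference of log2 CPM centred on each gene's mean. For Sos1 it was Dusp6, the ERK phosphatase gene (difference 0.0408 log2 units; log2 fold change of Dusp6 -1.03, SE 0.14). Rasgrp1 was closest to Birc6 (0.00953; log2 fold change -0.81, SE 0.10), Nf1 to Ap3b1 (0.0130; -0.71, SE 0.09) and Ksr1 to Gm5216 (0.0252; -1.44, SE 0.21). With 4 libraries in 2 groups, such likeness reflects mainly a similar fold change.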

How the data were processed

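The authors trimmed read pairs with Trimmomatic 0.36, mapped them to GRCm38, counted uniquely mapped reads per gene with featureCounts (Subread 1.5.1), and deposited the raw counts of each library without normalization. The library kit keeps the strand; neither the annotation release nor the use of strand in counting is given in the sources used here. Symbols were matched to 54723 of 54752 identifiers through a table of gene names, and coordinates and exons were those of the deposited files.

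Counts (16330802 to 18931090 per library) were filtered with filterByExpr, TMM-normalized and tested across 14330 genes with edgeR 4.0.16 (R 4.3.3, quasi-likelihood test, genotype as the single term), with Benjamini-Hochberg adjustment. Calls needed adjusted p under 0.05 and at least a 1.5-fold difference. The code was tested on simulated data. Named genes were the 8 members, the targeted genes, relatives of the members, every called pathway gene and the gene most like each called member. Lat, Grb2, Rap1a, Rap1b, Shoc2, Iqgap1, Ywhae, Ywhab, Dgkz and Evi2a were added after their values were seen. The members and lists were chosen with earlier results of these data known. A pair of pathway genes is counted but not reported here by name. Same-numbered replicates did not deviate together, so no block was used. The fits were repeated with edgeR's likelihood-ratio test, DESeq2 1.42.0, other scalings and filters, a replicate block, adjusted p alone and leaving out each library. Promoters were those of RefSeq, and reads of overlapping genes were assessed from annotated exons with Python 3.11.15 and pandas 2.3.3.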

Additional observations from a re-analysis of the deposited data

How the results depend on the processing

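Of 393 values of named genes in 11 alternative fits, 372 kept their direction and their call, taken from both thresholds together. A value could cross the adjusted p threshold alone and still count as kept. Among the fits that kept all libraries, Hras did so with library size alone as the scaling (edgeR adjusted p = 0.181, against 0.0348 in the main fit). It also did so with DESeq2 (Wald test adjusted p = 0.0519) and without the filter (edgeR adjusted p = 0.0521). The direction of Araf turned with library size alone as the scaling (log2 fold change -0.0059), a setting that moved the median of all genes by -0.08. With adjusted p as the single criterion, the fold threshold being dropped, 1 of the 8 members was higher and 5 were lower. Of the 50 pathway genes tested, 9 were higher and 22 lower by this criterion. The shares of all genes tested were 27.8% higher and 27.2% lower. The pathway list had 6 genes higher and 9 lower among genes with at least 10 counts in every library. When any 1 library was left out, 4 to 5 members were lower (5 without Mek1/2-tKO replicate 2, Braf being added) and 0 were higher, 5 to 7 pathway genes were higher and 10 to 13 lower, and the log2 fold change of Map2k1 lay between -0.92 and -0.81. In fits that leave 1 library of a genotype, that library is assumed to vary like the others.

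Whether same-numbered libraries share more than a number is not given in the labels. Their deviations correlated at -0.03 across genes. With the replicate block, 0 members were higher and 4 lower, as without it, 6 pathway genes were higher (Gab2 was lost) and 11 lower, and Map2k1 had a log2 fold change of -0.86. Depth limited Rasgrp4, Gab2 and Pak1, which had under 10 reads in at least 1 library and no value in the fit that required 10 in each; among the members, Nf1 had the fewest reads.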

Other observations

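Evi2a, a gene for a leukocyte membrane protein, lies inside an intron of Nf1 on the opposite strand and shares no exon base with it. It was named after its values were seen. Evi2a had 9.70 and 9.75 CPM in WT and 36.7 and 31.0 CPM in Mek1/2-tKO libraries, a log2 fold change of 1.80 (SE 0.15; edgeR adjusted p = 3.56e-07; 9.93e-28 to 4.19e-07 over the alternatives that kept all libraries), whereas its host gene Nf1 fell by 0.75 on the log2 scale. The nested gene and its host thus moved in opposite directions in the same libraries.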
